A study of Mus musculus with 48 samples.

Results

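The 12 cells with the highest and the 12 cells with the lowest levels of mitotic transcripts were set side by side, 24 of 48 single mouse cells in all. Each cell was scored by the mean of log2(FPKM + 1) over Ccnb1, Ccnb2, Cdc20, Plk1, Aurka, Cenpe, Cenpf, Ube2c, Tpx2 and Hmmr, where FPKM is a fragment count corrected for transcript length and for the depth of the cell's library. The 12 cells of highest score are called mitotic-high and the 12 of lowest score mitotic-low, and the 24 cells between them belong to neither. All the cells came from mouse embryonic stem cells of strain 129P2/OlaHsd that carry a doxycycline-inducible Mesp1, a transcription factor of early cardiovascular mesoderm. They were grown as embryoid bodies, which are suspension aggregates of differentiating cells, with 500 ng/ml doxycycline between days 2.25 and 3.25, and at day 4 the cells without propidium iodide stain (live cells) were sorted, and a Fluidigm C1 microfluidic chip isolated them one per chamber. Mitotic-high and mitotic-low cells therefore share the genotype, the doxycycline pulse and the harvest day. The labels call all 48 cells Mesp1-induced mesoderm, name no culture, clone or second preparation, and give no cells without doxycycline, so the cells stand as 1 sample, no test across samples exists and every value is a description of these cells.

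Transcripts for mitosis build up in G2 and are lost after division, so their level differs between cells of a dividing population. Many of these genes are controlled through a short promoter element, the cell cycle genes homology region (CHR), bound by complexes built on the MuvB core: the DREAM complex represses them in quiescence and G1, and B-Myb and FoxM1 join the core to activate them in G2. CCAAT boxes, bound by the NF-Y factor, often lie close to the CHR.

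The scores ran between 6.14 and 6.83 (median 6.39) in mitotic-high cells and between 0.49 and 3.11 (median 1.95) in mitotic-low cells. At the upper edge, C07 scored 6.14 inside the mitotic-high group and C43 scored 6.09 just outside it. At the lower edge, C31 scored 3.11 inside the mitotic-low group and C62 scored 3.12 just outside it, so both edges run through a continuous range of scores. The values of the scored genes chose the cells and are given as a description. Ube2c, which loads ubiquitin for the anaphase-promoting complex, had a median of 390 FPKM (204 to 770) in mitotic-high cells and 3.16 FPKM (0 to 49.3) in mitotic-low cells. The kinase Plk1 had a median of 118 FPKM (43.4 to 252) in mitotic-high cells and 0.28 FPKM (0 to 35.3) in mitotic-low cells. Ccnb1, the main mitotic cyclin, had a median of 234 FPKM (99.5 to 361) in mitotic-high cells and 13.7 FPKM (0 to 191) in mitotic-low cells. The label of the low side is relative: Ccnb2, a second B-type cyclin, reached 1 FPKM in 12 of 12 mitotic-high cells and in 11 of 12 mitotic-low cells, and Cdc20, the activator of the anaphase-promoting complex, in 12 of 12 mitotic-high and 5 of 12 mitotic-low cells.

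**Figure D1:**
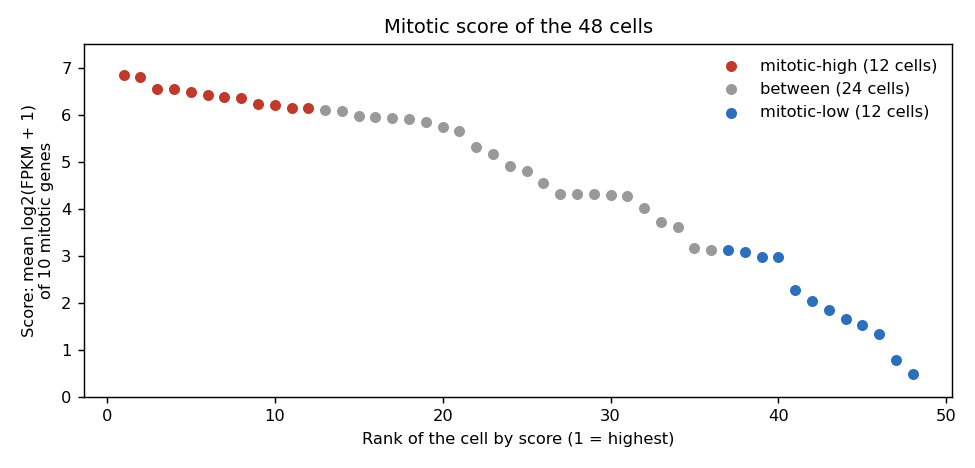
Mitotic score of each of the 48 cells, plotted by rank on the x axis with the highest score at the left and the mean log2(FPKM + 1) of the 10 scored genes on the y axis. Mitotic-high cells lie between 6.14 and 6.83 and mitotic-low cells between 0.49 and 3.11, with no break at either edge.

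Properties of the libraries moved with the score. A median of 6466 genes (5057 to 7010) reached 1 FPKM, the level called detected here, in mitotic-high cells, against 6049 (4788 to 6744) in mitotic-low cells. Across the 48 cells, which are 1 library each, the score had a Spearman rho of 0.41 (Pearson r 0.40) with the number of detected genes and of -0.31 (r = -0.28) with relative depth. Relative depth, read from the spacing of the lowest values in each cell, had a median of 0.96 (0.76 to 1.05) in mitotic-high and 1.05 (0.85 to 1.18) in mitotic-low cells. The number in the cell's label also moved with it (rho = -0.41, r = -0.48): 9 of 12 mitotic-high and 3 of 12 mitotic-low cells have labels up to C48, as have 25 of all 48 cells. The labels do not say what the number stands for. The part of these properties in the differences was not tested, so differences are also given between the 6 highest and 6 lowest cells among labels up to C48 and likewise among labels above C48.

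Of 10588 genes outside the score that reached 1 FPKM in at least 5 of the 48 cells, 1079 (10.2%) were higher in mitotic-high cells by 1 or more on the log2(FPKM + 1) scale and 479 (4.52%) were lower by 1 or more. The balance of the directions was 699 higher and 629 lower after regression on the number of detected genes and 974 and 444 after regression on relative depth. It was 1419 higher and 855 lower among labels up to C48 and 1264 and 1509 above, with 6 cells a side. The median difference of all genes was 0.10. The shares of 10.2% and 4.52% are the background for the counts over 12 cells a side. Within the label ranges the background is 13.4% higher and 8.08% lower up to C48, and 11.9% and 14.3% above. "Higher" and "lower" mean a difference of 1 or more between the group means, mitotic-high minus mitotic-low, without a test. Of the 100 named genes past this limit, 56 were past it on the same side in both label ranges. The other 44 were not in at least 1 range, and values in the ranges are given beside those described below.

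Other mitotic genes, a list of 98 members outside the score that were all detected often enough to be compared, were mostly higher in mitotic-high cells: 69 (70.4%, against 10.2% of all genes) were higher and 0 were lower, with a median difference of 1.79 against 0.10. The mean level of the list per cell ran between 3.68 and 5.06 log2 units in mitotic-high cells and between 1.57 and 3.35 in mitotic-low cells, without overlap. It followed the score over all 48 cells (rho = 0.90, r = 0.90) and also over the 24 cells between the groups (rho = 0.75, r = 0.77), as a description over libraries that share 1 preparation. Among labels up to C48, 59 members were higher and 2 lower, against 13.4% and 8.08% of all genes there. Among labels above C48, 68 were higher and 3 lower, against 11.9% and 14.3%. Since the cells were chosen by transcripts of the same phase, the count for this list is no independent result.

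Kinesins and spindle proteins had the highest share, with 25 of 26 higher and a median difference of 2.40. Kif20a, a kinesin of the central spindle, had a median of 94.3 FPKM (40.6 to 167) in the 12 mitotic-high cells, against 0 (0 to 21) in the 12 mitotic-low cells, where only C31, C48 and C67 reached 1 FPKM. Every mitotic-high cell lay above every mitotic-low cell for Kif20a, a separation shared by 2 of the 10588 genes (0.0189%), and the difference was 5.28 (2.09 among labels up to C48 and 6.20 above). Kif20a overlaps Cdc23 on the opposite strand by 2327 bases, as Nusap1 overlaps Oip5 and Prc1 overlaps Rccd1, and no label says whether the counting used strand. Nusap1, a microtubule-binding protein of the spindle, had a median of 85.9 FPKM (19 to 182) in mitotic-high and 0 FPKM (0 to 37.8) in mitotic-low cells. The groups met only through C48, at 37.8 FPKM on the low side, and C15 and C04 on the high side, and the difference was 4.96. Prc1, which crosslinks microtubules of the spindle midzone, had a median of 66.3 FPKM (0.71 to 147) in mitotic-high and 0.53 FPKM (0.10 to 28.5) in mitotic-low cells, a difference of 4.40. Here 1 cell on each side went against its group, C33 at 0.71 FPKM among mitotic-high cells and C65 at 28.5 FPKM among mitotic-low cells. Kif2c, a kinesin that takes microtubules apart, had a median of 55.6 FPKM (3.74 to 270) in mitotic-high and 0 FPKM (0 to 78.6) in mitotic-low cells, a difference of 4.19 that was 1.3 among labels up to C48 and 3.50 above. Gtse1, a microtubule-associated protein of G2 (3.94), Kif23, the kinesin of centralspindlin (3.55), and Tacc3, which bridges spindle microtubules (3.41), had differences of the same order.

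Regulators of the cyclin-dependent kinases were split, with 4 of 10 higher and a median difference of 0.89. Cdc25c, a phosphatase that switches on Cdk1, had a median of 41.7 FPKM (2.93 to 177) in mitotic-high and 0 FPKM (0 to 33.7) in mitotic-low cells, a difference of 4.27. Ccnf, an F-box protein named as a cyclin, had a median of 47.2 FPKM (0 to 94.0) in mitotic-high and 0.77 FPKM (0 to 13.4) in mitotic-low cells. C76 was the only mitotic-high cell under 1 FPKM for Ccnf, and C65 the highest of the low side, and the difference was 3.83. Cks2, a small partner of the kinases, was found in 12 of 12 cells of both groups, with a median of 481 FPKM (163 to 945) in mitotic-high and 69.1 FPKM (2.46 to 254) in mitotic-low cells, a difference of 3.14. The lowest value of the 98 members belonged to Cdc25a, named after its value was seen, whose phosphatase acts earlier, at the start of S phase as well: its median was 2.65 FPKM (0 to 28.5) in mitotic-high and 9.04 FPKM (0.75 to 34.9) in mitotic-low cells, a difference of -0.97.

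Mitotic kinases and genes of the spindle checkpoint, the control that delays anaphase until chromosomes are attached, were higher in 8 of 11 cases with a median difference of 1.65. Bub1b, the checkpoint protein BubR1, had a median of 32.3 FPKM (0 to 134) in mitotic-high and 0.14 FPKM (0 to 60.8) in mitotic-low cells, a difference of 3.78. C76 was at 0 among mitotic-high cells, and C84 and C31 reached 60.8 and 23.5 FPKM among mitotic-low cells. Ttk, the kinase Mps1, had a median of 25 FPKM (3.65 to 87.3) in mitotic-high and 0.81 FPKM (0 to 128) in mitotic-low cells, a difference of 3.12, although the highest single value was that of the mitotic-low cell C87. Bub1, a kinetochore kinase, differed by 2.94, but by 0.70 among labels up to C48 and 3.80 above.

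Centromere, kinetochore and passenger complex genes were higher in 14 of 15 cases (median 1.95). Cenpa, the centromeric histone H3 variant, had a median of 110 FPKM (17.5 to 293) in mitotic-high and 17.5 FPKM (0 to 71.7) in mitotic-low cells, a difference of 2.98. Birc5, survivin, was abundant on both sides with a median of 314 FPKM (222 to 631) in mitotic-high and 120 FPKM (0.24 to 263) in mitotic-low cells, a difference of 2.42. Nuf2, of the Ndc80 complex that binds microtubules, differed by 2.77. Of the 13 genes listed under condensin and chromosome structure 8 were higher (median 1.41). They were led by the condensin subunit Ncapg (2.92), Cdca3, which is placed here only by the list (2.52), and Cdca2, which brings a phosphatase to chromatin (2.5). Over the 24 cells between the groups, rho with the score was -0.27 for Ncapg, 0.50 for Cdca3 and 0.58 for Cdca2.

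Genes of ubiquitin and separase control were higher in 4 of 8 cases (median 1.01). Pttg1, securin, which holds separase inactive until anaphase, had a median of 240 FPKM (57.5 to 461) in mitotic-high and 62.9 FPKM (0 to 286) in mitotic-low cells, a difference of 3.57. Fzr1 (Cdh1), which activates the anaphase-promoting complex at mitotic exit and in G1, had a median of 39.4 FPKM (0 to 107) in mitotic-high and 0.67 FPKM (0 to 19.2) in mitotic-low cells, a difference of 3.36. Ube2s, which lengthens ubiquitin chains for the same complex, differed by 1.98. Cytokinesis genes were higher in 4 of 6 cases (median 1.85). Anln, an actin-binding protein of the cleavage furrow, differed by 2.95, Ect2, which activates RhoA there, by 2.63, and Racgap1, a subunit of centralspindlin, by 2.09. The 9 transcription regulators of mitotic genes had a median difference of 0.61, and 2 of them were higher. These were Nfyb, a subunit of the CCAAT-binding factor (2.01, and 0.65 among labels up to C48), and Foxm1 (1.77, and 0.63 among labels above C48), whose median was 9.02 FPKM (0.56 to 47.7) in mitotic-high and 0 FPKM (0 to 56.7) in mitotic-low cells. Lin37, a subunit of the MuvB core, stayed just under the limit at 0.98, and its value was -0.06 among labels up to C48. Over the 24 cells between the groups, rho with the score was -0.48 for Nfyb, 0.02 for Foxm1 and 0.50 for Lin37.

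**Figure D2:**
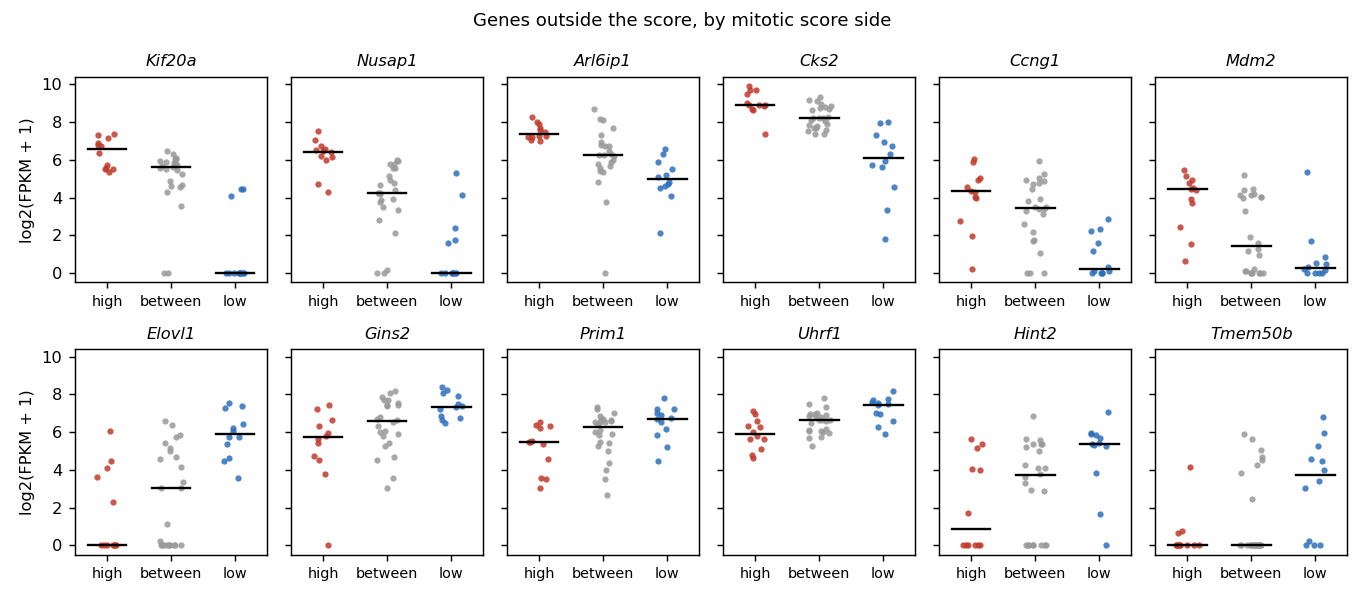
Log2(FPKM + 1) of 12 genes outside the score, 1 point per cell, with mitotic-high cells at the left of each panel, then the cells between, then mitotic-low cells, and a bar at each group's median. Kif20a and Arl6ip1 separate mitotic-high and mitotic-low cells fully, while Gins2, Uhrf1 and Elovl1 lie higher in mitotic-low cells with overlap.

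Promoter sequence was examined in the 250 bases before the annotated start (RefSeq, GRCm38.p6). Of the 69 other mitotic genes that were higher, 57 had a promoter in that table. A CHR match (TTTGAA or TTCGAA, either strand) was present for 24 of these 57 genes (42.1%), against 19.6% of 27025 genes with a promoter in the table. A CCAAT match on either strand was present for 37 of 57 (64.9%), against 37.5% of all, and both together in 1 window for 19 of 57 (33.3%), against 7% of all. Within the 100 bases next to the start the CHR share was 29.8% against 7.18% of all, and the CCAAT share 54.4% against 21.6%. Of the scored genes, 9 of 10 had a promoter there, 9 with CCAAT and 3 with a CHR match. The 46 S phase genes described below had 35 promoters, of which 20% held a CHR match and 65.7% CCAAT. A match is a run of letters and not a measured binding site. For 54 of the 57 genes a RefSeq start lay within 1000 bases of the gene's outermost start in GENCODE M21. The 4 promoters shown are those of the other mitotic genes with the largest differences that hold a CHR match, and capitals mark CHR and CCAAT matches, where TTCAAA and ATTGG are the same motifs read on the opposite strand. In Prc1 (chr7:80294226-80294475, plus strand) the CHR match starts 30 and the CCAAT match 62 bases before the start of transcription. In Kif2c (chr4:117178773-117179022, minus strand) a CHR match starts 103 bases before it and no CCAAT was found, but this RefSeq start lies 3867 bases inside the gene as GENCODE M21 draws it, so the window need not be the promoter in use. In Ccnf (chr17:24251410-24251659, minus strand) CHR matches start 130 and 14 bases and CCAAT matches 147 and 107 bases before it. In Bub1b (chr2:118597961-118598210, plus strand) the CHR match starts 188 and the CCAAT match 113 bases before it.
Prc1: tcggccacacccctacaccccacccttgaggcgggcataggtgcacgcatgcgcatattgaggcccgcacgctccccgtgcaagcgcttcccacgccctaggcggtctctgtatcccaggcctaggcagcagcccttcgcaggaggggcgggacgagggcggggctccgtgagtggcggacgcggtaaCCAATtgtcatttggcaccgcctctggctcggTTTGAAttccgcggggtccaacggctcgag
Kif2c: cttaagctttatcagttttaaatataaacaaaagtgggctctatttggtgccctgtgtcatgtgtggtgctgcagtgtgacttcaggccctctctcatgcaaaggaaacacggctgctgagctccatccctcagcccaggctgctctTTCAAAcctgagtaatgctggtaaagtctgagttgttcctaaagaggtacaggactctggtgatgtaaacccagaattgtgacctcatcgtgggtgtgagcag
Ccnf: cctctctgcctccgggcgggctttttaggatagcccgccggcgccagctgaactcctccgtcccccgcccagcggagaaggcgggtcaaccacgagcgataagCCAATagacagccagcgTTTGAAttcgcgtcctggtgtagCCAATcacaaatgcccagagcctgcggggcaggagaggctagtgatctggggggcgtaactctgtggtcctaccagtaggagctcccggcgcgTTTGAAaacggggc
Bub1b: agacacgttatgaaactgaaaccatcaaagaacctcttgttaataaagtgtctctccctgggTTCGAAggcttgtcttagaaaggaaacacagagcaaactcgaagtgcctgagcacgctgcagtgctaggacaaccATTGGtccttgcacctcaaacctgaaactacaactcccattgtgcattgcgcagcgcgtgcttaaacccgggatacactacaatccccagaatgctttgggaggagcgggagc

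The genes whose levels followed the score most closely over the 48 cells were Nusap1 (rho = 0.82), Arl6ip1 (0.81), Cks2 (0.80), Kif20a (0.74), Kif20b (0.72), Kpna2 (0.71), Prc1, Mki67 and Bub3 (0.69 each) and Kif23 (0.68). Arl6ip1, a membrane-shaping protein of the endoplasmic reticulum that was listed with the spindle genes, had a median of 165 FPKM (126 to 308) in mitotic-high cells, against 30.7 FPKM (3.38 to 94.9) in mitotic-low cells, without overlap, and differed by 2.53 (2.05 among labels up to C48 and 2.51 above). Over the 24 cells between the groups, Arl6ip1 had a rho of 0.75 and Kpna2, an importin of nuclear transport, 0.66, while Kif20a had 0.21. Kpna2 had a median of 650 FPKM (113 to 979) in mitotic-high and 94.9 FPKM (22.7 to 368) in mitotic-low cells, a difference of 2.22. Mki67, which coats mitotic chromosomes and gives the Ki-67 antigen, differed by 2.42, the cytokinesis kinesin Kif20b by 3.17 and the checkpoint protein Bub3 by 1.65. Among the lowest rho values were those of Gins2 (-0.59), Uhrf1 (-0.55), Gm13157 (-0.45) and Kcnmb4, a subunit of a potassium channel (-0.45). Gins2 and Uhrf1 are S phase genes. Gm13157 differed by -1.09 and Kcnmb4 by -2.15, but by -0.82 and -0.84 among labels up to C48. Kcnmb4 reached 1 FPKM in 17 of the 48 cells. The rho values were ranked among genes at 1 FPKM in at least 12 cells, a filter Kcnmb4 passed only through mitotic-low cells.

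Genes of S phase, when DNA is copied, leaned the other way: of 46 members, all compared, 13 were lower in mitotic-high cells (28.3%, against 4.52% of all genes) and 3 were higher (6.52%, against 10.2%), with a median difference of -0.54 against 0.10. Among labels up to C48, 19 were lower and 1 higher, against 8.08% and 13.4% of all genes there. Among labels above C48, 15 were lower and 3 higher, against 14.3% and 11.9%. Of the helicase and licensing genes 4 of 15 were lower, of polymerases, clamp and nucleotide supply 3 of 15, and of chromatin, repair and histone supply 6 of 16. Gins2, a subunit of the replicative helicase, had a median of 52.1 FPKM (0 to 173) in mitotic-high cells, against 163 FPKM (87.6 to 336) in mitotic-low cells, a difference of -2.10 that was -0.78 among labels up to C48 and -3.29 above. All 12 mitotic-low cells lay above 87 FPKM, and 9 mitotic-high cells lay below that level. Uhrf1, which couples DNA methylation to replication, had a median of 59.9 FPKM (24.1 to 138) in mitotic-high and 173 FPKM (58.8 to 291) in mitotic-low cells, a difference of -1.29 (-1.06 and -1.36 within the label ranges). Gins2 overlaps Gse1 on the opposite strand.

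The licensing helicase subunits Mcm5 (-1.58) and Mcm2 (-1.38), the replication factor Mcm10 (-1.21) and the primase Prim1 (-1.32) were also lower. So were the histone chaperone Chaf1b (-1.23) and Slbp (-1.08), which binds histone mRNA. Mcm2 differed by only -0.60 among labels above C48, and Mcm10 by -0.95 and Chaf1b by -0.56 among labels up to C48. Ung, which removes uracil from DNA (-1.68), and the thymidine kinase Tk1 (-1.53) were lower too, but differed by 0.35 and 0.10 among labels above C48. The 3 higher members were Rfc4, of the clamp loader (1.89), Cdc45, of the helicase (1.23), and the helicase Blm (1.15). Rfc4 differed by -0.07 and Cdc45 by -1.01 among labels up to C48, and Blm by 0.23 above.

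The S phase list did not order the cells as the mitotic list did. Its mean level per cell ran between 3.48 and 5.23 log2 units (median 4.44) in mitotic-high cells and between 3.36 and 5.61 (median 4.92) in mitotic-low cells, which overlap almost entirely. Across 48 cells its rho with the score was -0.28 (r = -0.17), and within the 12 mitotic-low cells it was 0.72 (r = 0.57), again over single libraries. The lowest S phase mean of all 48 cells was that of C79, a mitotic-low cell, and the mitotic-low cells C31 and C48, nearest the edge, had the highest 2 values of their group.

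**Figure D3:**
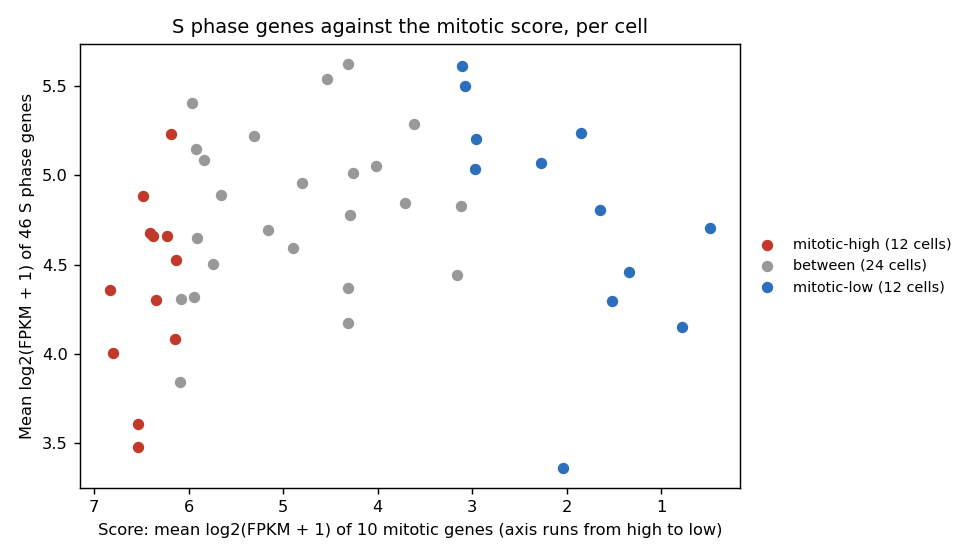
Mean log2(FPKM + 1) of 46 S phase genes on the y axis against the mitotic score on the x axis, which runs from high to low, 1 point per cell and coloured by group. Mitotic-high cells lie between 3.48 and 5.23 on the y axis, and mitotic-low cells spread between 3.36 and 5.61.

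Cell cycle genes outside S phase and mitosis moved less as groups. Of 24 genes of G1 and the restriction point 18 were compared, with 2 higher (11.1%, against 10.2% of all genes) and 3 lower (16.7%, against 4.52%). The counts were 4 and 2 among labels up to C48, against 13.4% and 8.08% of all genes there. Above C48 they were 2 and 2, against 11.9% and 14.3%. Cdkn2d, an inhibitor of Cdk4 and Cdk6 (p19), was higher by 2.2, with a median of 18.7 FPKM (0 to 51.9) in mitotic-high and 0 FPKM (0 to 62.6) in mitotic-low cells, although it differed by only 0.67 among labels above C48. E2f4, the repressor E2F of DREAM, was higher by 1.13, but its value was -0.97 among labels above C48. Cdkn1c, the inhibitor p57, was lower (-1.41, and 0.18 among labels up to C48), as were the cyclins Ccne2 (-1.29, and -0.48 above C48) and Ccnd2 (-1.07, and -0.04 up to C48). Of 11 genes of the p53 response and apoptosis 9 were compared, with 3 higher (33.3%, against 10.2% of all genes) and 1 lower (11.1%, against 4.52%). The counts were 2 and 0 among labels up to C48, and 1 and 3 above, against the same range shares of all genes. Ccng1, a p53 target, had a median of 19.3 FPKM (0.18 to 66.1) in mitotic-high and 0.18 FPKM (0 to 6.19) in mitotic-low cells, a difference of 3.11 (2.91 and 2.52 within the label ranges). Ccng1 reached 1 FPKM in 11 of 12 mitotic-high cells and 5 of 12 mitotic-low cells. Mdm2, the ligase that degrades p53, had a median of 20.7 FPKM (0.55 to 43.7) in mitotic-high and 0.22 FPKM (0 to 40.4) in mitotic-low cells, a difference of 3.02 (2.59 among labels up to C48 and 0.73 above), and C65 alone gave the high value on the low side. Over the 48 cells, rho with the score was 0.52 for Ccng1 and 0.46 for Mdm2. Over the 24 cells between the groups it was 0.02 and -0.02. Pmaip1 (Noxa) was higher by 1.25, but by 0.84 and 0.31 within the label ranges, and Sesn1 lower (-1.42, and -0.14 up to C48).

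Of 22 tubulins and nuclear envelope or chromatin proteins 5 were higher (22.7%, against 10.2% of all genes) and 0 lower. Tubb4b, a beta-tubulin, had a median of 275 FPKM (116 to 478) in mitotic-high and 78.8 FPKM (4.36 to 228) in mitotic-low cells, a difference of 2.17. Lamin B1 (Lmnb1, 1.29, and 0.80 above C48), the histone variant gene H2afx (1.23) and emerin (Emd, 1.08) followed, and Tubg1, the gamma-tubulin of centrosomes, was higher by 1.09 but differed by 0.89 among labels up to C48 and by -1.04 above. The 18 ribosomal protein genes differed by between -0.11 and 0.14, and none was past the limit. Rpl7 had a median of 2985 FPKM in mitotic-high and 3512 FPKM in mitotic-low cells. Of 14 housekeeping genes none was past the limit over 12 cells a side, with a median difference of 0.10. The largest were Tbp (0.63) and Hprt (0.54). Among labels up to C48, 1 was higher and 1 lower, against 13.4% and 8.08% of all genes there. Above C48 there were also 1 and 1, against 11.9% and 14.3%. Hprt differed by -1.14 up to C48 and 1.28 above, and Tbp by 1.34 and 0.21.

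**Figure D4:**
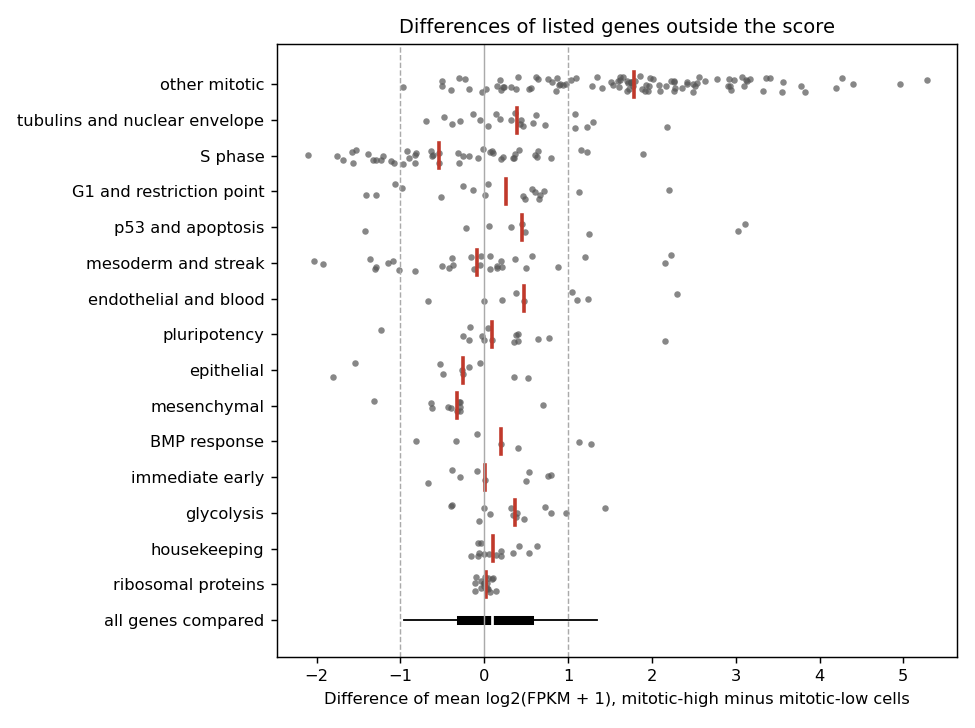
Difference of mean log2(FPKM + 1), mitotic-high minus mitotic-low, of each compared gene by list, 1 point per gene, with a red bar at each list's median and dashed lines at -1 and 1. All genes are drawn as a thick bar between the 25th and 75th percentiles (-0.28 to 0.54), a thin line between the 5th and 95th and a gap at the median, and the endoderm and neurectoderm list, with 2 compared genes, is not drawn. The other mitotic list has its median at 1.79 and the S phase list at -0.54, against 0.10 for all genes.

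The largest single difference in the lower direction was that of Elovl1, which lengthens very long fatty acids. It had a median of 0 FPKM (0 to 67) in mitotic-high cells, where 5 of 12 reached 1 FPKM, against 59 FPKM (11 to 184) in mitotic-low cells, where 12 of 12 did. The difference was -4.16 (-1.67 among labels up to C48 and -4.51 above), but over the 24 cells between the groups its rho with the score was 0.41. Elovl1 (chr4:118428093-118432953, plus strand, GENCODE M21) and the scored gene Cdc20 (chr4:118432901-118437352, minus strand) overlap at their ends by 53 bases. Both reached 1 FPKM in 23 of 48 cells, Elovl1 alone in 8, Cdc20 alone in 16 and neither in 1, with a rho of -0.18 between them. The part of the overlap in the Elovl1 values was not tested.

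The other 11 genes at the low end of the difference belong to unlike processes. They overlapped between groups, as did all but 2 of the 10588 genes compared. Tmem50b, a membrane protein, reached 1 FPKM in 1 of 12 mitotic-high and 8 of 12 mitotic-low cells (difference -2.68). It reached that level in 17 of the 48 cells, as did Asb8. Genes of this set had to reach 1 FPKM in at least 12 cells, which Tmem50b and Asb8 did only through mitotic-low cells. Their contrast is partly set by that filter. Men1, menin, had a median of 0 FPKM (0 to 42.2) in mitotic-high and 25.5 FPKM (1.37 to 46.8) in mitotic-low cells (-2.32). Herpud1, of protein quality control at the endoplasmic reticulum, had a median of 1.77 FPKM (0 to 40.6) in mitotic-high and 47 FPKM (0 to 278) in mitotic-low cells (-2.61). Ugdh, which makes UDP-glucuronate for glycosaminoglycans, stayed below 7 FPKM in all 12 mitotic-high cells, with a median of 3.08 FPKM (0 to 6.69), against 37.2 FPKM (0 to 65.8) in mitotic-low cells (-2.45). Phlda2, an imprinted gene (-2.36), and Crabp1, which binds retinoic acid (-2.32), ranged widely in both groups, with highest values of 762 and 1088 FPKM in mitotic-high and 738 and 679 FPKM in mitotic-low cells. Hint2 (-2.62), Armcx1 (-2.39), Asb8 (-2.34), Rrp36 (-2.31) and Ppa2 (-2.29) complete the set. Armcx1 differed by 0.16 and Hint2 by -0.96 among labels up to C48, and Rrp36 by -0.54 above. Over the 24 cells between the groups, rho with the score was 0.56 for Phlda2, 0.42 for Armcx1 and 0.40 for Asb8. For the others of these 11 genes it lay between -0.09 (Rrp36) and 0.21 (Men1). Phlda2 had a median of 161 FPKM in the cells between, above the medians of both groups. At the other end, 11 of the 12 genes with the largest positive difference were mitotic genes described above. The remaining one was 1810035L17Rik (current symbol Slirp), a mitochondrial RNA-binding protein, with a median of 374 FPKM (0 to 721) in mitotic-high and 94.3 FPKM (0 to 594) in mitotic-low cells, a difference of 3.61, and a rho with the score of 0.23.

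Genes of the cells' developmental state overlapped between the groups, as did all but 2 of the 10588 genes compared. Of 30 mesoderm and primitive streak genes 3 were higher (10%, against 10.2% of all genes) and 8 lower (26.7%, against 4.52%), with a median difference of -0.08. Among labels up to C48 these were 4 higher and 6 lower, against 13.4% and 8.08% of all genes there. Above C48 they were 4 higher and 5 lower, against 11.9% and 14.3%. Mesp1 itself, the sum of any endogenous and induced transcript that the table counts, had a median of 0.48 FPKM (0 to 94.5) in mitotic-high and 15.9 FPKM (0 to 61.9) in mitotic-low cells, a difference of -1.31 (-1.07 and -0.56 within the label ranges). It was 0.17 without the 7 cells of fewest detected genes, 1 of them mitotic-high and 3 mitotic-low. The rho of Mesp1 with the score was -0.06 over the 48 cells and 0.53 over the 24 cells between the groups. Tbx20, a cardiac transcription factor, reached 1 FPKM in 0 of 12 mitotic-high cells and in 6 of 12 mitotic-low cells. The difference was -2.03 (-0.69 and -2.20 within the label ranges). Of the 48 cells 9 reached 1 FPKM, 3 of them between the groups, so Tbx20 passed the filter of 5 cells only through mitotic-low cells. Its contrast is partly set by that filter. Hand1, of lateral and extraembryonic mesoderm, had a median of 0.21 FPKM (0 to 147) in mitotic-high and 12.2 FPKM (0 to 298) in mitotic-low cells, a difference of -1.92 (-2.06 and -0.51 within the label ranges). Foxa2 (-1.36), Gata4 (-1.29), the ligand gene Nodal (-1.15), Lhx1 (-1.09) and the receptor Pdgfra (-1.02) were the other lower members, of which Nodal alone was past the limit in both label ranges (-1.20 and -1.53). Foxa2 differed by -0.76 among labels above C48, and Gata4 by -0.67 up to C48 and -0.73 above. Lhx1 differed by -0.03 up to C48 and 0.59 above, and Pdgfra by -0.54 and 0.42. Snai1, a repressor of E-cadherin, was higher by 2.23 (3.30 and 1.77 within the label ranges), with a median of 22.6 FPKM (0 to 185) in mitotic-high and 0 FPKM (0 to 127) in mitotic-low cells. Cyp26a1, which degrades retinoic acid (2.16, and 0.78 up to C48), and Evx1 (1.20, but 0.59 and 0.77 within the label ranges) were higher as well.

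Of 15 endothelial and blood genes 9 were compared, of which 4 were higher (44.4%, against 10.2% of all genes) and 0 lower. Among labels up to C48 the count turned to 1 higher and 3 lower, against 13.4% and 8.08% of all genes there, with a median difference of -0.57. Above C48 it was 1 and 1, against 11.9% and 14.3%, so the list had no direction that both label ranges shared. Etv2, a transcription factor that starts the endothelial and blood programme, had a median of 26.2 FPKM (0 to 907) in mitotic-high and 0.32 FPKM (0 to 39.3) in mitotic-low cells, a difference of 2.3 (1.69 and 1.66 within the label ranges). It reached 1 FPKM in 8 of 12 mitotic-high and 5 of 12 mitotic-low cells, and C19 alone gave 907 FPKM. Lmo2 (1.24), Gata2 (1.10) and Tal1 (1.04), transcription factors of the same programme, rested on 5, 5 and 4 of 12 mitotic-high cells, and none of these 3 was higher by 1 in either label range. Lmo2 differed by -0.68 up to C48 and 0.63 above, Gata2 by -1.48 and 0.49, and Tal1 by 0.52 and 0.34. Tal1 reached 1 FPKM in 8 of 48 cells, 4 of them mitotic-high, and passed the filter of 5 cells only through that side. Kdr, a receptor of the same lineage, differed by 0.48, with 6 of 12 mitotic-high and 5 of 12 mitotic-low cells at 1 FPKM.

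**Figure D5:**
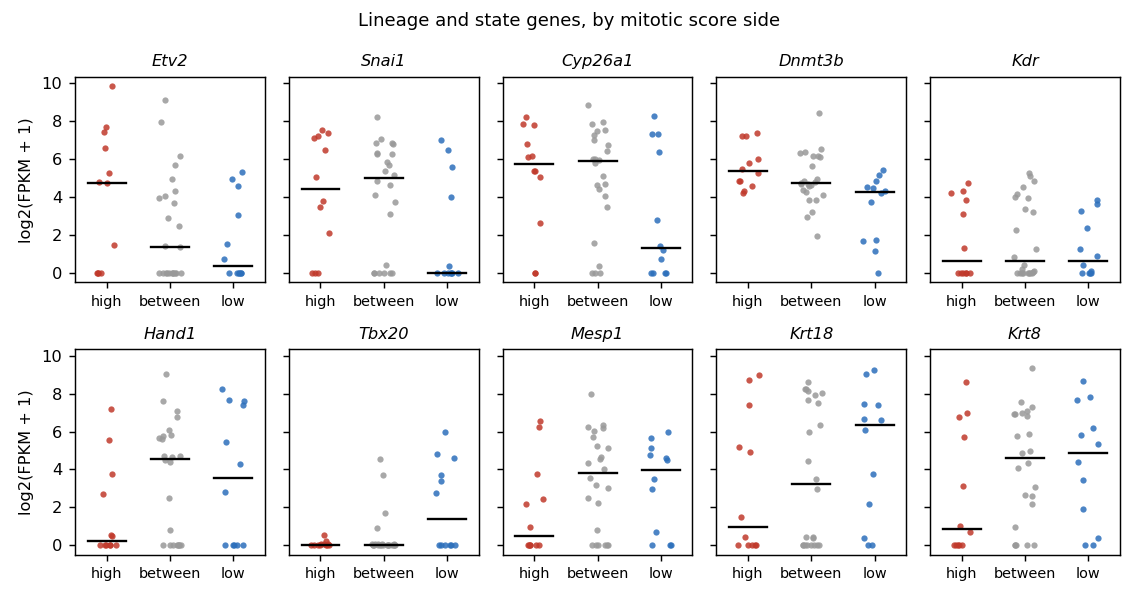
Log2(FPKM + 1) per cell of 10 genes of developmental state, with mitotic-high cells at the left of each panel, then the cells between, then mitotic-low cells, and a bar at each group's median. Etv2 has its highest value of 907 FPKM in a mitotic-high cell, and Tbx20 is below 1 FPKM in all 12 mitotic-high cells. Tbx20 passed the filter of 5 cells only through mitotic-low cells.

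Pluripotency genes were compared in 15 of 16 cases, with Dnmt3b, a DNA methyltransferase, higher by 2.15 (median 40.8 FPKM, 17.8 to 165, in mitotic-high and 18.5 FPKM, 0 to 41.6, in mitotic-low cells) and Dppa5a lower (-1.23, and -0.36 above C48). Each direction held 6.67% of the compared pluripotency genes, against 10.2% of all genes higher and 4.52% lower. Among labels up to C48, 1 of the 15 pluripotency genes was higher and 5 lower, against 13.4% and 8.08% of all genes there. Above C48 2 were higher and 0 lower, against 11.9% and 14.3%. Of 10 epithelial genes 2 were lower (20%, against 4.52% of all genes), the keratins Krt18 (-1.80) and Krt8 (-1.55, and -0.91 up to C48). Krt18 had a median of 1.12 FPKM (0 to 503) in mitotic-high and 82.7 FPKM (0 to 601) in mitotic-low cells, and both groups held cells at 0 and cells above 500 FPKM. Of 11 mesenchymal genes compared of 13, Sparc, a matrix protein, was lower (-1.32) and none was higher. The lower share was 9.09%, against 4.52% of all genes. Among labels up to C48 2 mesenchymal genes were lower and 0 higher, and above 4 were lower and 1 higher, against the same range shares of all genes. Of 13 markers of endoderm and neurectoderm, which the sorted cells could include, only Otx2 (-0.22) and Pax6 (0.08) were detected often enough to be compared. Foxa2 was counted with the mesoderm and streak genes, not among these 13, and reached 1 FPKM in 12 of the 48 cells. In 7 of 9 BMP response genes compared, Id2 (1.28, and 0.55 up to C48) and Smad7 (1.13) were higher (28.6%, against 10.2% of all genes). In 14 of 15 glycolysis genes compared, Hk2, a hexokinase, was higher by 1.44 (7.14% of the 14, against 10.2% of all genes). Hk2 differed by -0.45 among labels up to C48. None of the 9 immediate early genes compared, of 12, was past the limit, with Jun at 0.80 and Egr1 at -0.67.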

How the data were processed

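Single-cell RNA-seq values for 48 cells were taken from 1 table deposited by the authors, with a column per cell. The deposited values are treated as FPKM: the table names no unit, and, per the submitters' processing notes, Cufflinks 2.2.1.0, CASAVA 1.8.2, TopHat 0.7 and build mm10 were used, with no role or order given. For read filters, annotation and strand the setting is not given in the sources used here. FPKM gives no read count per cell. The ratio of low values (under 2 FPKM) between cells gave 1 relative depth per cell, which held within 0.1 log2 units for 98.9% of cell pairs and ran between 0.76 and 1.18 of the median.

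Rows of the same symbol were summed (240 symbols on several rows, 23284 symbols in all). Differences are of mean log2(FPKM + 1), a scale that understates the change of low genes, and genes at 1 FPKM in at least 5 cells were compared. Members and gene lists (16 lists, 366 genes, all found in the table, 7 by a synonym) were chosen with earlier results of these data known. Named genes are the scored genes, the 12 largest differences in each direction among genes at 1 FPKM in at least 12 cells (short RNAs left out), 3 leading members per mitotic role, up to 4 members of each other list and any past the limit, Mesp1, Kdr and Pdgfra, and the 10 highest and 5 lowest rho values. Some genes that this rule names are not reported here. No cell was removed and no doublet caller was run, so cells captured together could not be told from single ones. The largest Pearson correlation between 2 cells was 0.82. Of 128 named genes outside the score, 28 overlap another protein-coding gene. Coordinates are from GENCODE M21 (GRCm38). Python 3.11.15, pandas 2.3.3 and scipy 1.17.1 were used, and the procedure was tested on simulated data. There were 12 alternatives planned and 3 added after seeing the data: each label range alone and a regression on relative depth.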

Additional observations from a re-analysis of the deposited data

How the results depend on the processing

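Over the 15 alternatives, higher mitotic genes numbered between 59 and 79 (69 as reported) and lower S phase genes between 9 and 19 (13 as reported). The count of all higher genes, 1079, became 2542 with a pseudocount of 0.1 FPKM and 699 after regression on the number of detected genes. The count of all lower genes, 479, became 1152 with that pseudocount, 934 with 8 cells per side, 280 with 16, 743 with medians in place of means, and 855 and 1509 among labels up to and above C48. The split of higher to lower genes was 699 to 629 after the regression on detected genes, 748 to 586 with 6 highest and 6 lowest cells from each label range together, 1419 to 855 among labels up to C48 and 1264 to 1509 above. Scaling each cell to 1000000 without short RNAs moved the median difference of all genes to 0.16, and the smaller pseudocount moved it to 0.22. The median number of detected genes was higher in mitotic-high cells by 417, and by between -29.5 and 473 under the alternatives.

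Of 1910 values of 128 single genes, 58 (34 genes) had the opposite sign to the value reported, 20 of them for genes past the limit of 1. Lhx1 became 0.39 with 8 cells per side, 0.28 with both label ranges balanced and 0.59 above C48. With balanced label ranges Lmo2 became -0.021, Gata2 -0.50 and Tubg1 -0.075. Mesp1 became 0.17 without the cells of few detected genes, and Dppa5a 0.059 when Ccnb1, Ccnb2, Cdc20, Plk1 and Aurka alone made the score. Among labels up to C48, Armcx1 became 0.16, Rfc4 -0.071, Cdc45 -1.01, Cdkn1c 0.18, Lmo2 -0.68, Gata2 -1.48 and Hk2 -0.45. Above C48, Ung became 0.35, Tk1 0.10, E2f4 -0.97, Pdgfra 0.42 and Tubg1 -1.04. The cause of these changes was not tested. No paired analysis was possible because the cells form 1 group and carry no replicate numbers. A median of 6212 detected genes per cell limits what a value of 0 shows.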

Other observations

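Single mitotic-low cells differed in which mitotic transcripts they held. C31 had 191 FPKM of Ccnb1, 72.9 of Aurka and 78.6 of Kif2c. C67 had 127 FPKM of Ccnb2 and 69.4 of Cdc20, and C12 had 110 FPKM of Ccnb2 and 103 of Cdc20, while both were at 0 for Nusap1. C59 had 129 FPKM of Ccnb2, with Kif20a and Nusap1 at 0, and C87 had the highest Ttk value of the 24 compared cells. Among mitotic-high cells, C76 was at 0 for both Bub1b and Ccnf, with 126 FPKM of Kif2c and 182 of Nusap1. C19 held the most Etv2, at 907 FPKM, with 47.9 FPKM of Tal1 and 185 of Snai1, and C92 had 99.3 FPKM of Lmo2, 63.0 of Gata2 and 66.0 of Tal1.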
